A study of Mus musculus with 12 samples.

Results

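Mouse cardiac fibroblasts given *Sox17* and *Erg* by retrovirus were compared with control fibroblasts 4 weeks after infection, across all genes measured by bulk RNA-seq. The comparison was defined by the labels of group and time, and it used 4 of the 12 libraries of the series, 2 per group. The other 8 libraries are the same groups at Day 3 and Day 7, and they enter the common estimate of spread and the tests of how the 4-week effect differs from the earlier ones.

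Both groups started from heart cells labelled fibroblast, kept in EGM2, an endothelial growth medium. Per the study's methods, neonatal hearts of up to 3 days of age were pooled. Fibroblasts were selected by their surface protein THY1, with removal of PECAM1-positive cells where that step was done, and they were infected with pMX retrovirus. The study's results say that this removal was added for characterizing the induced cells, in the section that reports these libraries. The Sox17-Erg libraries, labelled iEC for induced endothelial cell, received both factors, and the control libraries, whose columns carry the name of the empty vector, received neither. The methods give C57BL/6J animals or a cross of *Tcf21*-CreERT2 with Rosa26-tdTomato reporter animals as sources, and the labels of these libraries do not say which. No sort before RNA extraction is named, so the share of converted cells in each library is not known.

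SOX17 is a transcription factor of the SOX F group that is required in arterial endothelium, where it acts upstream of Notch signalling. ERG is an ETS transcription factor present throughout the endothelium that maintains junction, angiogenic and quiescence genes. Cardiac fibroblasts derive mostly from the epicardium, express *Pdgfra* and *Tcf21*, and make the collagen and proteoglycan matrix of the heart wall.

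The question asked of these libraries was which genes were higher and which lower in Sox17-Erg than in control 4 weeks after infection. Below, rose and fell refer to this difference between groups unless a span of time is named. Among 15506 genes with enough counts to test, 1845 rose and 1703 fell in Sox17-Erg cultures by edgeR's quasi-likelihood test with Benjamini–Hochberg adjustment, at an adjusted p under 0.05. These are 11.9% of tested genes higher and 11% lower, the background against which every gene group below is read. The gene groups were written with earlier results of these data known, so such a reading is a description and not a test. At least 2-fold changes accounted for 1113 of the risen and 1003 of the fallen genes, and at least 8-fold changes for 385 and 183. The median change was 1.34 on the log2 scale among risen genes and −1.23 among fallen genes, against −0.01 over all genes tested. There were 33 risen genes with no count in either control library and 12 fallen genes with no count in either Sox17-Erg library. Genes called higher took up 19.04% of all counts in Sox17-Erg and 7.92% in control, and genes called lower took up 8.21% in Sox17-Erg and 20.2% in control. Both Sox17-Erg libraries lay above both control libraries for 30.3% of tested genes and below them for 32.4%. The counts of calls depended on each library: 1166, 1336, 1049 and 1397 genes rose and 855, 1198, 648 and 1162 fell when control replicate 1, control replicate 2, Sox17-Erg replicate 1 and Sox17-Erg replicate 2 were left out in turn. In the same order, 4 values in parentheses after a count, a fold, a log2 fold change or an adjusted p give that value without each library. Where another setting changed a named gene's call or moved a list's count by over 1.5 times, the value under it follows. The settings were no filter on low counts, a stricter filter, the replicate number as a block, a GC offset, both of these together, the 4-week libraries alone, DESeq2 and DESeq2 size factors. Such a log2 fold change depends on the prior count of the fit where a group is left with no count. In bulk samples, fewer cells of a type and less RNA per cell cannot be told apart.

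**Figure D1:**
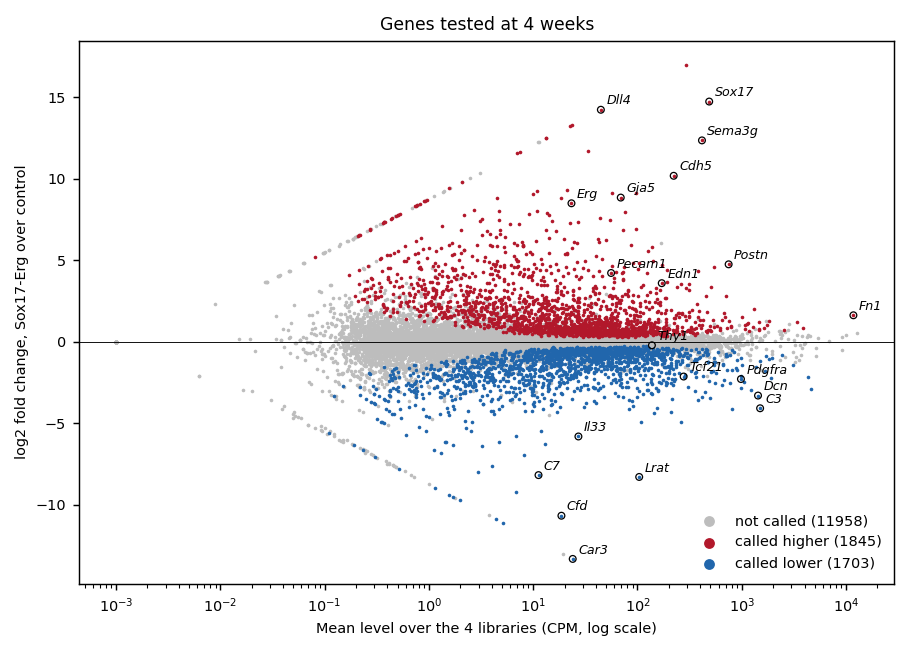
Each point is 1 of the 15506 genes tested, with its mean level over the 4 libraries on the x axis (CPM, log scale) and its log2 fold change, Sox17-Erg over control at 4 weeks, on the y axis. The 1845 genes called higher and the 1703 called lower are coloured, uncalled genes are grey, and named genes of the text are marked. The largest changes lie among genes that were near 0 in 1 of the groups.

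Levels are given as CPM, counts scaled to a common library total with TMM factors, and fold changes are Sox17-Erg over control with the standard error (SE) of the fit. The 4 libraries held 24120758 to 41240449 counts, so that 3 counts, taken as the detection floor, correspond to 0.0752 to 0.122 CPM. Replicates correlated at 0.976 in control and 0.975 in Sox17-Erg (Pearson's r of log2 CPM across genes, which are not independent). Over the 500 most variable genes, replicate libraries lay 41.9 and 49.2 log2 units apart and libraries of different groups 104 to 112. Mitochondrial genes held 1.82% to 3.32% of counts and ribosomal protein genes 2.11% to 2.68%. Macrophage markers differed between replicates rather than groups, with the summed level of 14 genes at 57.9 and 539 CPM in control and 84.5 and 420 CPM in Sox17-Erg. The labels do not say that replicates were separate cultures, so the p-values measure the spread between these libraries, and 2 libraries against 2 cannot give an exact permutation p under 0.33 for a single gene.

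Both delivered factors were still transcribed at 4 weeks. *Sox17* stood at 0 and 0.0813 CPM in the control libraries and at 1036 and 914 CPM in the Sox17-Erg libraries (a ratio of 31490 with a 95% exact counting interval of 8718 to 260100, adjusted p = 9.346e-06). The log2 fold change of *Sox17* in the fit was 14.73 (13.47, 17.70, 14.63, 14.79). *Erg* was at 0.100 and 0.163 CPM in control and 65.2 and 27.7 CPM in Sox17-Erg (log2 fold change 8.49 (8.12, 8.80, 7.73, 8.95), SE 1.31, adjusted p = 0.001955). The Sox17-Erg replicates were close for *Sox17* but unlike for *Erg*, and no control library approached either level. Reads of the delivered and the endogenous copies cannot be told apart in a count per gene. *Etv2*, the ETS factor used in other endothelial conversions and not delivered here, had no count in any of the 4 libraries.

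The arterial list moved almost as a block: 22 of 25 tested members rose and none fell (1 with no filter or the 4-week libraries alone), with a median log2 fold change of 2.78. Because earlier results of these data were known when the list was written, this share is not a test. The members described first were near or at 0 in control cultures. *Dll4*, the Notch ligand of arterial and tip endothelial cells, had no count in either control library and 83.4 and 94.9 CPM in the Sox17-Erg libraries, at least 904-fold higher (adjusted p = 0.001221). *Sema3g*, a semaphorin secreted by arterial endothelium, was at 0.150 and 0.163 CPM in control and 785 and 877 CPM in Sox17-Erg (log2 fold change 12.34, SE 0.80, adjusted p = 2.226e-05). *Gja5*, which encodes the arterial gap junction protein connexin 40, was at 0.251 and 0.366 against 129 and 147 CPM (log2 fold change 8.84, SE 1.12, adjusted p = 0.0006935), with 14.2% of its 31-base transcript words shared with other genes. These 3 genes went from at or near 0 to levels at which both Sox17-Erg replicates stood close together. *Edn1*, the vasoconstrictor peptide endothelin 1, was present in control at 26.5 and 26.1 CPM and reached 385 and 246 CPM (log2 fold change 3.59, SE 0.32, adjusted p = 0.0001068). *Gja4*, the connexin 37 gene, went from 44.5 and 24.4 to 198 and 158 CPM (log2 fold change 2.37, SE 0.53, adjusted p = 0.01181 (0.03324, 0.07468, 0.06203, 0.03274)). *Slit2*, a guidance ligand, went from 54.9 and 48.9 to 409 and 243 CPM (log2 fold change 2.65, SE 0.29, adjusted p = 0.0002898). *Cxcr4*, the receptor for the chemokine CXCL12, stayed low at 5.42 and 8 CPM in Sox17-Erg against 0.0752 and 1.10 in control (log2 fold change 3.61 (2.60, 6.40, 3.85, 3.28), SE 0.87, adjusted p = 0.01634 (0.03157, 0.002344, 0.04723, 0.06358), or 0.0547 with the 4-week libraries alone). *Ltbp4*, a latent TGF-β binding protein already present in control, rose from 2064 and 2030 to 4757 and 4775 CPM (log2 fold change 1.22, SE 0.19, adjusted p = 0.001988). The 3 members not called were *Alox5*, *Nrp1* and *Igfbp3*, the last of which was at 1641 and 1357 CPM in control and 746 and 929 CPM in Sox17-Erg (adjusted p = 0.1264, or 0.009777 with no filter and 0.04772 with the 4-week libraries alone).

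**Figure D2:**
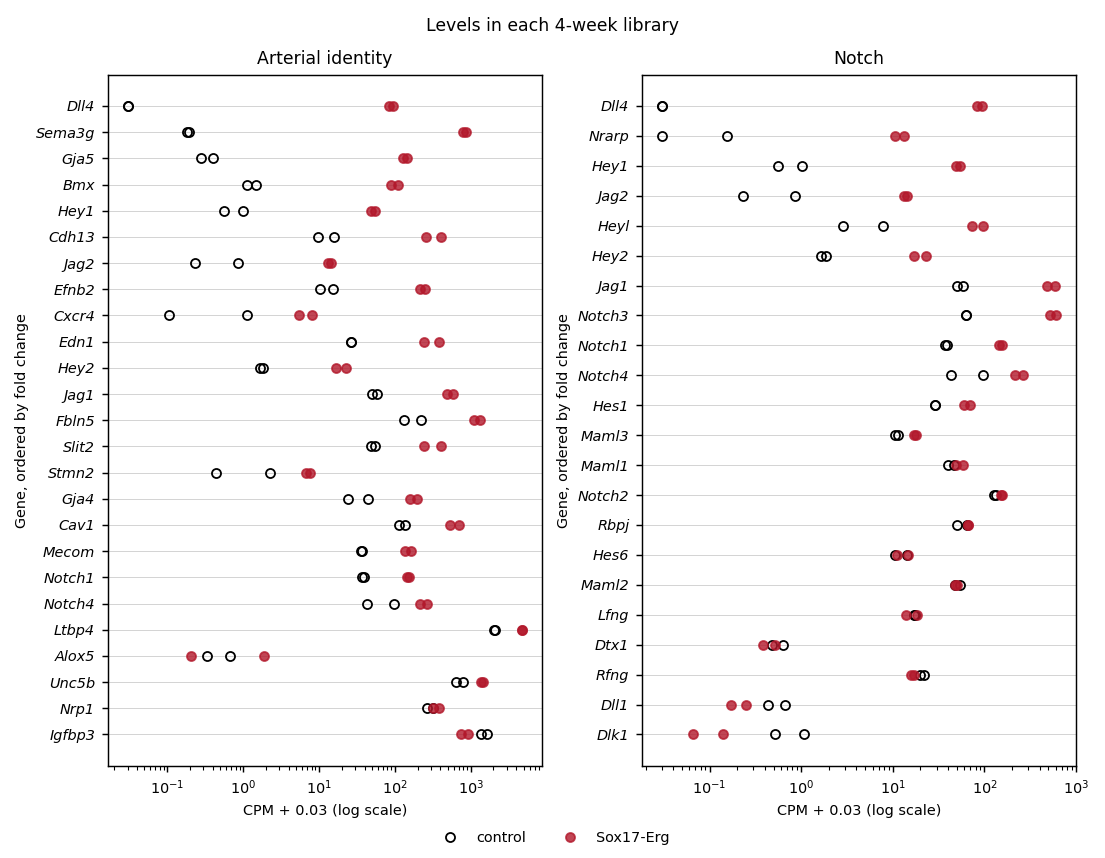
Levels in each of the 4 libraries (CPM plus 0.03, log scale) of the tested members of the arterial and Notch lists, with 1 row per gene ordered by fold change. Open circles are the control libraries and filled circles the Sox17-Erg libraries. For *Dll4*, *Sema3g* and *Gja5* the groups are separated by more than 100-fold, and for *Igfbp3* the Sox17-Erg libraries lie to the left of the control libraries.

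Promoter sequence is shown for the 3 most changed arterial genes and for genes taken up later in the text, *Edn1* and *Prdm1*, which rose, and *Il33*, which fell. Each sequence is the 250 bases before the annotated start site on the gene's strand, from RefSeq on GRCm38.p6, and all lie on the forward strand except that of *Prdm1*. Capitals mark the letters of an ETS core with flanks (AGGAAG or CGGAAG) or of a SOX core (ACAAT), each on either strand, so that CTTCCT and ATTGT also count.
*Dll4*, chr2:119325534-119325783: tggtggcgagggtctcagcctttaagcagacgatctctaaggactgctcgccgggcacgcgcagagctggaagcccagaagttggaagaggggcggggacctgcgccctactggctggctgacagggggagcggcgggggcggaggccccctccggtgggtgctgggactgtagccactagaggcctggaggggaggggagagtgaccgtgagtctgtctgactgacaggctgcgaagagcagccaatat
*Sema3g*, chr14:31217623-31217872: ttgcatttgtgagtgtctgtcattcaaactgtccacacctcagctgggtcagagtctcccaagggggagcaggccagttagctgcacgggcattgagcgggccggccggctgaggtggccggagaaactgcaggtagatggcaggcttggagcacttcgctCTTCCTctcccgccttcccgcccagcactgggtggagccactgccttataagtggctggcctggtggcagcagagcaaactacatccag
*Gja5*, chr3:97032152-97032401: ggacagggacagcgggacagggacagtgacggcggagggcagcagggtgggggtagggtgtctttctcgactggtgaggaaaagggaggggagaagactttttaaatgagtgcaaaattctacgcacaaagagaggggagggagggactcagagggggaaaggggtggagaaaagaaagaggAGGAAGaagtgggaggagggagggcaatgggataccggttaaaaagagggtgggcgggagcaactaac
*Edn1*, chr13:42301226-42301475: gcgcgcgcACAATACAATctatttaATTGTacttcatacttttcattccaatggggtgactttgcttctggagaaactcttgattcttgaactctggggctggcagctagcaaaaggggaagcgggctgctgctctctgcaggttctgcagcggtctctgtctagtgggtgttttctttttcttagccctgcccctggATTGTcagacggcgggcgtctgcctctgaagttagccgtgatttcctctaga
*Prdm1*, chr10:44458749-44458998: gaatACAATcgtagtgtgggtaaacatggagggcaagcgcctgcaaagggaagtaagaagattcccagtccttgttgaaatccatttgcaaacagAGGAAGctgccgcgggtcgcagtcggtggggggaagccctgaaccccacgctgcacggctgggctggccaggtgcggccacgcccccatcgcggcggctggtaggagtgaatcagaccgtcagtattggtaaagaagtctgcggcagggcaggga
*Il33*, chr19:29924863-29925112: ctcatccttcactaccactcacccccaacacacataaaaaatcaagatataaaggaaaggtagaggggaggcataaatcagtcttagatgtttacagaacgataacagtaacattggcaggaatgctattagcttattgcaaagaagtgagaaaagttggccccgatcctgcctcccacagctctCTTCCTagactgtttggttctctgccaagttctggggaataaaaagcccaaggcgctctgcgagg
The window of *Dll4* held none of these letters, those of *Sema3g*, *Gja5* and *Il33* held 1 ETS form each at 89, 68 and 65 bases before the start, that of *Edn1* held the SOX core 4 times, and that of *Prdm1* held 1 of each. Of 1369 risen genes with a promoter entry, 46.3% held an ETS form and 22.5% the SOX core, against 46.8% and 19.6% of 1255 fallen genes. Of 11214 tested genes, 5602 held an ETS form and 22.2% the SOX core, and of 16801 genes with an entry over the whole count table, tested or not, 7554 and 28.0%. The ETS form CGGAAG taken alone was less frequent among the called genes, at 18.6% of risen and 19.8% of fallen genes, than among tested genes, at 26.5%, and AGGAAG was at 33.1%, 34.7% and 32.0%. The longer SOX form CATTGT was in 9.72% of promoters of risen, 6.22% of fallen and 7.98% of tested genes, and a GC box, GGGCGG, in 68.4%, 60.6% and 61.2%. A match of letters is a description of these windows and not a site of binding, and no test was made.

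Among Notch signalling genes, some ligands, some receptors and some targets rose. On this list 12 of 22 tested members rose and none fell, or 1 with most other settings. The other 10 were not called, with log2 fold changes down to −3.38. Of the risen members, *Dll4*, *Jag1*, *Jag2*, *Notch1*, *Notch4*, *Hey1* and *Hey2* are also on the arterial list and count in both. Lists below, such as those of guidance, junction and caveolae genes, also share arterial members, so list counts are not separate results. The members that rose were the ligands *Dll4*, *Jag1* and *Jag2*, the receptors *Notch1*, *Notch3* and *Notch4*, the target genes *Hey1*, *Hey2*, *Heyl*, *Hes1* and *Nrarp*, and the coactivator *Maml3*. *Jag1* was at 58.3 and 49.9 CPM in control and 588 and 486 CPM in Sox17-Erg (log2 fold change 3.31, SE 0.30, adjusted p = 0.0001286). *Notch1* rose from 38.9 and 37.2 to 156 and 144 CPM (log2 fold change 1.98, SE 0.17, adjusted p = 8.929e-05), with no overlap between groups. *Hey1*, a transcriptional repressor induced by Notch, was at 0.977 and 0.529 CPM against 49.2 and 54.1 CPM (log2 fold change 6.04, SE 0.65, adjusted p = 0.0002838). *Nrarp*, a feedback inhibitor of the pathway, was at 0.125 and 0 CPM in control and 13.2 and 10.6 CPM in Sox17-Erg (log2 fold change 7.23 (11.25, 6.52, 7.06, 7.36), SE 1.16, adjusted p = 0.002476). The DNA-binding partner of the receptors, *Rbpj*, was at 50.4 and 65.1 against 65.9 and 65.5 CPM (adjusted p = 0.3167).

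Pan-endothelial identity genes were higher in part. Of the endothelial identity list, 14 of 29 tested members rose and 3 fell (1, 2, 0, 0), and 12 tested members were not called (median log2 fold change 1.77). *Cdh5*, which encodes VE-cadherin of endothelial junctions, was at 0.251 and 0.569 CPM in control and 496 and 394 CPM in Sox17-Erg (log2 fold change 10.17 (9.60, 10.78, 9.99, 10.30), SE 1.67, adjusted p = 0.002686). *Pecam1*, the gene behind the PECAM1 surface marker, was at 3.46 and 8.17 against 117 and 94.6 CPM (log2 fold change 4.21 (3.70, 4.95, 4.04, 4.33), SE 0.42, adjusted p = 0.0002027). *S1pr1*, a sphingosine 1-phosphate receptor that stabilises vessels, rose from 1.23 and 1.22 to 163 and 124 CPM (log2 fold change 6.87, SE 0.47, adjusted p = 2.748e-05). *Kdr*, the main VEGF receptor, reached 36.03 and 25.6 CPM from 3.73 and 2.64 CPM (log2 fold change 3.26, SE 0.44, adjusted p = 0.001074), *Emcn*, an endothelial sialomucin, 29.1 and 26.7 CPM from 0.977 and 1.30 CPM (log2 fold change 4.63, SE 0.74, adjusted p = 0.002449), and *Vwf*, the clotting protein von Willebrand factor, 67.9 and 47.9 CPM from 2.06 and 3.01 CPM (log2 fold change 4.53, SE 0.95, adjusted p = 0.008843 (0.07357, 0.04552, 0.0457, 0.02405)). *Tie1*, an orphan receptor of the angiopoietin system, was at 0.451 and 0.285 CPM in control and 12.1 and 8.22 CPM in Sox17-Erg (log2 fold change 4.73, SE 1.20, adjusted p = 0.02065 (0.1086, 0.09973, 0.07867, 0.04379)).

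Other defining genes of endothelium stayed near 0 or did not differ detectably. *Cldn5*, the endothelial tight junction claudin, had 1 count in 1 library of each group and none in the others, so it was not tested. *Nos3*, which makes nitric oxide in endothelium, was at 0.150 and 0 CPM in control and 0.0708 and 0.0370 CPM in Sox17-Erg. *Tek*, the angiopoietin receptor, was at 6.47 and 6.06 against 9.91 and 8.26 CPM (log2 fold change 0.54, SE 0.19, adjusted p = 0.06994). *Flt4*, the receptor for VEGF-C, was at 57.1 and 61.5 against 48.4 and 35.6 CPM (adjusted p = 0.3589). The 3 members that fell were already high or present in control fibroblasts. *Cd34*, which fibroblasts also express, was at 351 and 241 CPM in control and 107 and 97.9 CPM in Sox17-Erg (log2 fold change −1.53, SE 0.37, adjusted p = 0.01618 (0.09836, 0.0259, 0.08371, 0.08242)). *Eng*, a TGF-β coreceptor, was at 968 and 1501 against 576 and 536 CPM (log2 fold change −1.15, SE 0.36, adjusted p = 0.04956 (0.05602, 0.2363, 0.1678, 0.1582), or 0.05072 with DESeq2 size factors and 0.05225 with a GC offset). *Tspan8* was at 12.7 and 5.90 against 2.12 and 1.33 CPM (log2 fold change −2.43 (−1.77, −2.86, −2.81, −2.16), SE 0.61, adjusted p = 0.01917 (0.1249, 0.02032, 0.07361, 0.1117)). *Cdh5* and *Pecam1*, whose proteins the study used to mark its induced endothelial cells, were thus present in both Sox17-Erg libraries. *Cldn5* and *Nos3*, endothelial genes chosen here, were at or near 0, and *Nos3* was chosen after its value was seen. With a dye for nitric oxide, the study reported a stronger signal in its induced cells than in control fibroblasts. These RNA levels do not measure that function.

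Some endothelial transcription factors other than those delivered were also higher. On their list 13 of 28 tested members rose, *Sox17* and *Erg* included, and 1 fell (0, 0, 0, 0), or 0 with a GC offset. *Epas1*, the hypoxia-inducible factor abundant in endothelium, was at 822 and 929 CPM in control and 2333 and 1768 CPM in Sox17-Erg (log2 fold change 1.23, SE 0.30, adjusted p = 0.01824 (0.1086, 0.06046, 0.1143, 0.03175)). *Elk3*, an ETS repressor, rose from 43 and 52.3 to 118 and 111 CPM (log2 fold change 1.27, SE 0.18, adjusted p = 0.001175). The ETS factors *Ets1* and *Fli1* were at 189 and 168 and 11.2 and 14.8 CPM in control and at 183 and 166 and 9.88 and 9.26 CPM in Sox17-Erg (adjusted p = 0.9014 and 0.1399). *Meox2*, an antiangiogenic homeobox factor, was the member that fell, from 1.53 and 1.67 to 0.425 and 0.593 CPM (log2 fold change −1.64, SE 0.52, adjusted p = 0.04879 (0.1258, 0.1297, 0.2277, 0.1024), or 0.05336 with a GC offset). *Runx1*, which drives the emergence of blood from endothelium, rose from 4.51 and 4.15 to 88.8 and 50.9 CPM (log2 fold change 4.01, SE 0.29, adjusted p = 3.326e-05). It was the only member of 5 tested on the hemogenic list to be called. With no filter, the replicate block, the 4-week libraries alone or a GC offset and the block, 2 were called.

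Venous, lymphatic, endocardial and capillary lists had members that moved each way or fell. Of the venous list 2 of 10 tested members rose and 3 fell (1, 2, 2, 1). *Nr2f2*, the factor that specifies venous fate, was at 96.9 and 74.99 CPM in control and 71.4 and 87.2 CPM in Sox17-Erg, with overlapping groups (log2 fold change −0.12, SE 0.18, adjusted p = 0.6811). *Slco2a1*, the prostaglandin transporter, fell from 241 and 216 to 63.7 and 48.2 CPM (log2 fold change −2.03, SE 0.21, adjusted p = 0.0002173), and *Nrp2*, a coreceptor for VEGF-C and semaphorins, was at 157 and 159 against 80.98 and 65.4 CPM (log2 fold change −1.11, SE 0.30, adjusted p = 0.0278 (0.09295, 0.0875, 0.08356, 0.1295)). On the lymphatic list 4 of 9 tested members rose and 1 fell (1, 1, 0, 1). They included *Prox1*, the master regulator of lymphatic fate, at 0.877 and 1.46 CPM in control and 38.4 and 25 CPM in Sox17-Erg (log2 fold change 4.78, SE 0.37, adjusted p = 5.249e-05). *Reln*, a secreted matrix glycoprotein, was at 1.13 and 0.732 against 51.8 and 26.3 CPM (log2 fold change 5.36, SE 0.85, adjusted p = 0.002234). *Pdpn* and *Lyve1*, defining lymphatic surface markers, were not called: *Pdpn* was at 92.4 and 64.4 against 75.3 and 61.7 CPM and *Lyve1* at 2.56 and 7.97 against 4.14 and 12.2 CPM, the latter higher in the replicates numbered 2, which also held the higher macrophage marker levels. None of the 8 endocardial and valve genes tested rose and 3 fell (1, 2, 2, 1), with *Cdh11*, a mesenchymal cadherin, from 357 and 281 to 81.1 and 83.7 CPM (log2 fold change −1.95, SE 0.16, adjusted p = 7.607e-05). On the capillary list 3 of 13 tested members rose (1, 2, 1, 2) and 5 fell (3, 3, 2, 3), or 3 with a GC offset. *Cd36*, the fatty acid translocase, fell from 25.9 and 30.1 to 0.602 and 3.15 CPM (log2 fold change −3.90 (−4.01, −3.79, −3.16, −5.55), SE 0.65, adjusted p = 0.002873), and *Aqp1*, a water channel, rose from 81.3 and 33.9 to 334 and 214 CPM (log2 fold change 2.25 (3.01, 1.76, 1.88, 2.50), SE 0.45, adjusted p = 0.00703 (0.006445, 0.03393, 0.05073, 0.01533)).

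Genes that endothelium uses to control clotting and vascular tone moved both ways. Of that list 5 of 22 tested members rose and 9 fell. *Entpd1*, the ectonucleotidase that removes ATP and ADP, rose from 1.30 and 2.03 to 43.9 and 35.8 CPM (log2 fold change 4.60, SE 0.39, adjusted p = 8.928e-05), while *Nt5e*, which converts the resulting AMP to adenosine, fell from 465 and 334 to 38.8 and 29.96 CPM (log2 fold change −3.54, SE 0.64, adjusted p = 0.004438). *Ramp2*, the partner of the adrenomedullin receptor, fell from 42.3 and 31.5 to 5.77 and 4.30 CPM (log2 fold change −2.87, SE 0.53, adjusted p = 0.004597), though 31.7% of its transcript sequence is shared with the overlapping gene *Vps25*. Its ligand *Adm* was at 548 and 461 against 152 and 141 CPM (log2 fold change −1.78, SE 0.41, adjusted p = 0.01265 (0.0617, 0.03408, 0.07656, 0.06839)). *Ace*, the angiotensin-converting enzyme, was high in both groups at 2633 and 2613 and 3054 and 2791 CPM (adjusted p = 0.806).

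Some leukocyte adhesion genes were higher and others lower, and 5 of 12 tested members rose and 2 fell (1, 2, 3, 1). *Icam2*, a constitutive endothelial adhesion molecule, was at 0.301 and 0.122 CPM in control and 12.7 and 14.9 CPM in Sox17-Erg (log2 fold change 5.91 (6.77, 5.51, 6.01, 5.76), SE 0.50, adjusted p = 7.849e-05). *Vcam1* was expressed in both groups and rose from 377 and 515 to 1219 and 919 CPM (log2 fold change 1.26, SE 0.21, adjusted p = 0.002585). *Cx3cl1*, a membrane-bound chemokine, went from 104 and 124 to 414 and 304 CPM (log2 fold change 1.66, SE 0.19, adjusted p = 0.0004408). *Icam1*, the cytokine-inducible counterpart, was at 61.4 and 39.97 against 20.1 and 15.5 CPM (log2 fold change −1.51, SE 0.34, adjusted p = 0.01187 (0.08488, 0.0164, 0.04924, 0.07453)). E-selectin, *Sele*, was low in both groups at 1.48 and 3.54 and 2.12 and 2.96 CPM (adjusted p = 0.9743).

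Growth factor genes changed on the side of both ligands and receptors. *Pdgfb*, which endothelium secretes to recruit pericytes, was at 0.251 and 0.488 CPM in control and 200.1 and 189.6 CPM in Sox17-Erg (log2 fold change 9.11, SE 0.54, adjusted p = 1.71e-05), while *Pdgfra*, the fibroblast receptor of the family, was at 1657 and 1609 CPM in control and 330.1 and 335 CPM in Sox17-Erg (log2 fold change −2.30, SE 0.56, adjusted p = 0.01791 (0.0617, 0.05075, 0.1079, 0.08288)). *Fgfr3* rose from 1.03 and 1.10 to 10.6 and 8.33 CPM (log2 fold change 3.15, SE 0.36, adjusted p = 0.0003726). On the list of ERK feedback, FGF and PDGF genes, which holds these 3, 9 of 28 tested members rose (5, 7, 5, 5) and 7 fell (3, 4, 1, 2). In the VEGF and angiopoietin list 5 of 16 tested members rose and 4 fell (2, 3, 0, 1). *Vegfa* rose from 38.4 and 45.3 to 158 and 99.6 CPM (log2 fold change 1.62, SE 0.21, adjusted p = 0.0008137) and its relative *Pgf*, placental growth factor, from 2.73 and 1.67 to 44.7 and 28.9 CPM (log2 fold change 4.04, SE 0.30, adjusted p = 3.782e-05), whereas the lymphatic growth factor *Vegfc* was at 105 and 65.4 against 26.9 and 26.8 CPM (log2 fold change −1.66, SE 0.37, adjusted p = 0.01083 (0.07579, 0.01419, 0.07305, 0.05742)).

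Secreted Wnt inhibitors moved in opposite directions. Of the Wnt list 12 of 39 tested members rose (8, 8, 8, 7) and 6 fell (3, 4, 1, 2), or 10 with no filter. *Sost*, which encodes sclerostin, an osteocyte inhibitor of Wnt coreceptors, had no count in control and stood at 16.7 and 36.3 CPM in Sox17-Erg, at least 269-fold higher (217, 352, 368, 169.5) (adjusted p = 0.0004524), with unlike replicates. *Sostdc1*, a related inhibitor of Wnt and BMP, was at 0.150 and 0.0813 against 26.5 and 30 CPM (log2 fold change 7.80, SE 1.20, adjusted p = 0.001978). *Sfrp1*, a soluble inhibitor made by fibroblasts, fell from 925 and 492 to 60.8 and 55.3 CPM (log2 fold change −3.61, SE 0.26, adjusted p = 3.782e-05). The feedback target *Axin2* was at 2.46 and 2.07 against 3.08 and 3.19 CPM (adjusted p = 0.487).

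In the TGF-β and BMP list 13 of 43 tested members rose and 9 fell (5, 7, 4, 5). *Ltbp1*, which stores latent TGF-β in matrix, rose from 45.2 and 54.6 to 594 and 564 CPM (log2 fold change 3.54, SE 0.25, adjusted p = 2.893e-05). *Id4*, an inhibitor of DNA binding, went from 3.13 and 2.77 to 27.4 and 34.5 CPM (log2 fold change 3.39, SE 0.31, adjusted p = 0.0001227). *Tgfbr3*, the coreceptor betaglycan, was at 289.9 and 259 against 46.5 and 53.96 CPM (log2 fold change −2.45, SE 0.46, adjusted p = 0.005358 (0.0264, 0.01783, 0.055, 0.03192)). In the insulin-like growth factor list 5 of 13 tested members rose (3, 3, 3, 4) and 4 fell (2, 4, 2, 2). Its binding proteins split, *Igfbp5* going from 1.85 and 0.854 to 11.8 and 15.8 CPM (log2 fold change 3.31 (4.01, 2.90, 3.51, 3.06), SE 0.53, adjusted p = 0.002465) and *Igfbp6* from 1188 and 707 to 196 and 134 CPM (log2 fold change −2.52, SE 0.30, adjusted p = 0.0005123). *Igf1* itself was at 111 and 97.3 against 274 and 266 CPM (log2 fold change 1.38, SE 0.35, adjusted p = 0.02108 (0.08344, 0.09829, 0.08642, 0.06837)).

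Axon and vessel guidance genes moved in both directions, and 14 of 40 tested members rose and 8 fell (4, 8, 4, 4), or 14 with no filter or DESeq2. Semaphorins moved in opposite directions. Alongside *Sema3g*, *Sema6a* rose from 1.65 and 1.79 to 60.2 and 42.6 CPM (log2 fold change 4.90, SE 0.43, adjusted p = 9.844e-05), and *Sema3c* fell from 7.57 and 4.76 to 0.354 and 0.519 CPM (log2 fold change −3.81, SE 0.41, adjusted p = 0.0002794). The ephrin receptor *Epha3* fell from 33.8 and 14.7 to 4.92 and 3.37 CPM (log2 fold change −2.55 (−1.82, −3.02, −2.85, −2.33), SE 0.46, adjusted p = 0.00446), and the netrin receptor *Unc5b*, enriched in arterial and tip cells, rose from 633 and 789.5 to 1390 and 1468 CPM (log2 fold change 1.01, SE 0.18, adjusted p = 0.004258).

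Caveolae are plasma membrane pits that are abundant in endothelium. On the caveolae and transcytosis list 4 of 12 tested members rose and 1 fell. *Cav1* went from 137 and 114 to 708 and 530.1 CPM (log2 fold change 2.30, SE 0.35, adjusted p = 0.001812) and *Cav2* from 19.1 and 16.8 to 130.1 and 119 CPM (log2 fold change 2.79, SE 0.30, adjusted p = 0.0002794), while *Cavin2* fell from 328 and 279 to 121 and 102 CPM (log2 fold change −1.45, SE 0.18, adjusted p = 0.0007298). *Mfsd2a*, a lipid transporter that suppresses transcytosis in brain endothelium, was at 0.251 and 1.10 CPM in control and 108 and 107 CPM in Sox17-Erg (log2 fold change 7.46 (6.61, 8.73, 7.44, 7.44), SE 0.58, adjusted p = 5.36e-05). Of the junction list 9 of 26 tested members rose and 7 fell. *Ctnnb1*, β-catenin, rose from 539.8 and 573 to 1094 and 953 CPM (log2 fold change 0.88, SE 0.15, adjusted p = 0.002889), and the claudin *Cldn15* fell from 17.3 and 17.7 to 3.04 and 2.70 CPM (log2 fold change −2.61, SE 0.45, adjusted p = 0.003659).

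On the other side of the comparison, the cardiac fibroblast programme was lower in part. Of its 30 genes, 16 fell (9, 12, 7, 8) and 3 rose, or 5 with no filter, with a median log2 fold change of −1.14. *Smoc2*, a matricellular protein of fibroblasts, was at 188 and 122 CPM in control and 10.8 and 14.7 CPM in Sox17-Erg (log2 fold change −3.60, SE 0.63, adjusted p = 0.003703). *Ogn*, the proteoglycan osteoglycin, was at 993 and 809 against 77.4 and 89.8 CPM (log2 fold change −3.43, SE 0.58, adjusted p = 0.003143). *Htra3*, a secreted protease, was at 2171 and 911 against 85.8 and 87.5 CPM (log2 fold change −4.15 (−3.39, −4.64, −4.14, −4.20), SE 1.15, adjusted p = 0.03006 (0.1162, 0.04178, 0.1607, 0.1302)). *Dcn*, the proteoglycan decorin, fell from 2855 and 2350 to 224 and 301 CPM (log2 fold change −3.31, SE 0.58, adjusted p = 0.003632). *Tcf21*, the transcription factor of epicardium-derived fibroblasts, was at 543 and 362 against 86.6 and 118 CPM (log2 fold change −2.14, SE 0.65, adjusted p = 0.04254 (0.1669, 0.06628, 0.2099, 0.1119)), a fall whose call was lost whichever library was left out.

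Several fibroblast genes went the other way or stayed. *Postn*, the matricellular protein of activated fibroblasts and valves, rose from 60.4 and 47.5 to 1542 and 1346 CPM (log2 fold change 4.74, SE 0.30, adjusted p = 1.901e-05). *Pi16*, a marker of adventitial fibroblasts, went from 1.05 and 0.691 to 25.2 and 15.3 CPM (log2 fold change 4.51, SE 0.37, adjusted p = 6.966e-05). *Thy1*, used in the methods to select the starting cells, was at 163 and 133 CPM in control and 132 and 122 CPM in Sox17-Erg (log2 fold change −0.22, SE 0.25, adjusted p = 0.5703). *Mgp*, an inhibitor of calcification, was abundant in both groups at 4062 and 4275 and 3696 and 4320 CPM (adjusted p = 0.8936). The cardiac factors *Gata4* and *Gata6* parted, *Gata4* at 115 and 96.9 against 124 and 98 CPM (adjusted p = 0.8213) and *Gata6* falling from 154 and 114 to 67.1 and 52.9 CPM (log2 fold change −1.16, SE 0.18, adjusted p = 0.001814). Of 18 mesenchymal transition factors 5 rose and 4 fell (1, 3, 0, 1). *Tbx15* rose from 0.576 and 0.285 to 16.4 and 11.5 CPM (log2 fold change 4.96 (5.59, 4.60, 4.68, 5.17), SE 0.62, adjusted p = 0.0006746) and *Prrx2* from 0.877 and 0.569 to 17.02 and 11.3 CPM (log2 fold change 4.26, SE 0.51, adjusted p = 0.0004923), both mesenchymal developmental regulators, while *Sox9* was at 44.2 and 46.4 against 9.49 and 12.96 CPM (log2 fold change −2.01, SE 0.49, adjusted p = 0.01712 (0.05729, 0.05462, 0.123, 0.05485)). *Snai1*, the repressor of epithelial and endothelial cadherins, was at 85.4 and 88.5 against 55.6 and 54.7 CPM (adjusted p = 0.07634, or 0.006854 to 0.04522 with 5 other settings).

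**Figure D3:**
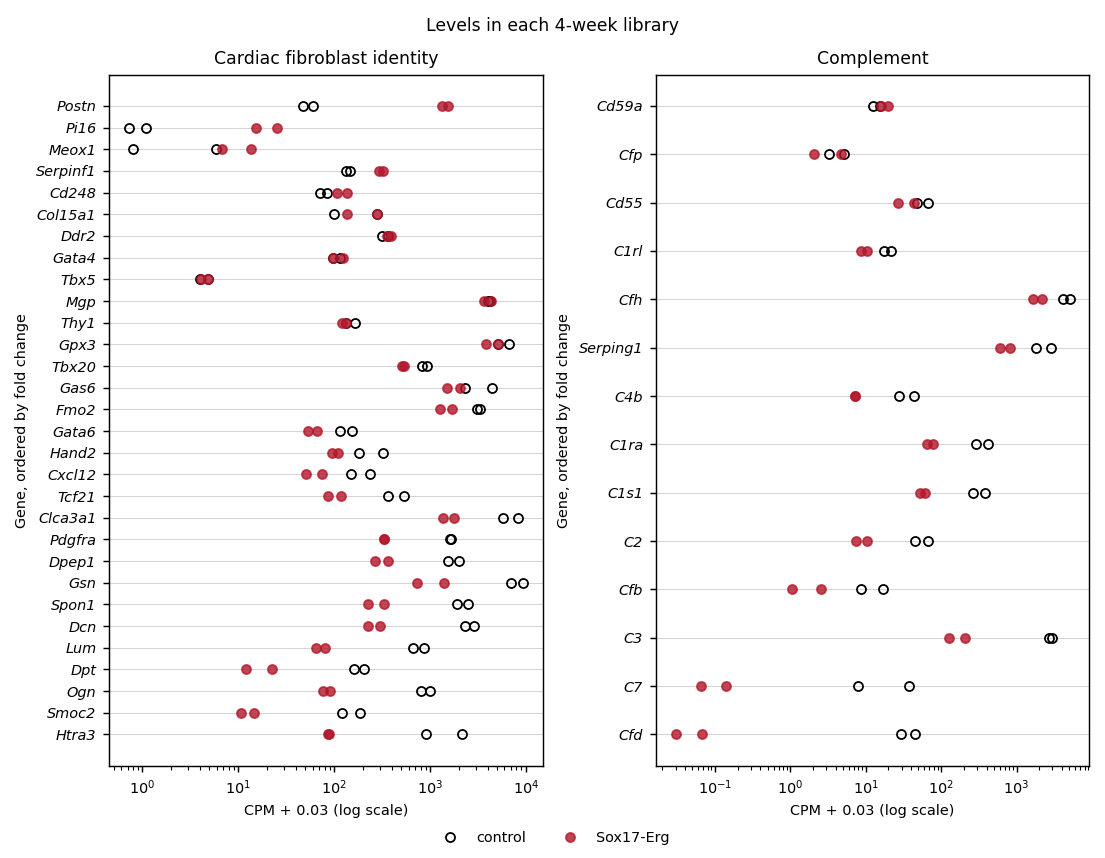
Levels in each of the 4 libraries (CPM plus 0.03, log scale) of the tested members of the cardiac fibroblast and complement lists, with 1 row per gene ordered by fold change. Open circles are the control libraries and filled circles the Sox17-Erg libraries. *Postn* and *Pi16* stand above control, most other members below, and *C7* and *Cfd* near the detection floor in Sox17-Erg.

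Matrix genes moved in both directions. Of 17 fibrillar and associated collagens 4 rose (2, 1, 1, 3) and 4 fell (2, 4, 1, 2). *Col1a1*, the main fibrillar chain, was at 3722 and 3730 CPM in control and 4588 and 5096 CPM in Sox17-Erg (adjusted p = 0.3361). *Col14a1* rose from 95.6 and 82.9 to 763 and 1091 CPM (log2 fold change 3.38, SE 0.28, adjusted p = 7.849e-05) and *Col6a3* fell from 1088 and 1139 to 124 and 235 CPM (log2 fold change −2.63, SE 0.36, adjusted p = 0.001047). Of 24 basement membrane genes 8 rose and 5 fell (3, 4, 3, 3). The laminin chain *Lama1* went from 0.376 and 0.569 to 21.7 and 15.9 CPM (log2 fold change 5.35, SE 0.75, adjusted p = 0.001237). *Lama3* went from 1.13 and 2.16 to 23.9 and 20.2 CPM (log2 fold change 3.77, SE 0.35, adjusted p = 0.0001362). The collagen IV chain *Col4a4* fell from 316 and 308 to 76.2 and 99.8 CPM (log2 fold change −1.83, SE 0.25, adjusted p = 0.001152), whereas the ubiquitous chain *Col4a1* was at 10700 and 10320 against 17100 and 13250 CPM (adjusted p = 0.1455, or 0.009802 with DESeq2).

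Proteoglycans, elastic fibre and matricellular genes divided, and 11 of 36 tested members rose (8, 8, 6, 10) and 10 fell. *Ccn3*, a matricellular regulator of Notch and growth factor signals, rose from 1.13 and 1.30 to 107 and 60.5 CPM (log2 fold change 6.11, SE 0.52, adjusted p = 8.315e-05), and *Fn1*, fibronectin, was at 7688 and 3904 against 21950 and 13580 CPM (log2 fold change 1.62, SE 0.36, adjusted p = 0.01076 (0.008171, 0.05134, 0.07421, 0.01335), or 0.05844 with the 4-week libraries alone). *Efemp1*, the elastic fibre protein fibulin 3, fell from 178 and 88.9 to 16.4 and 8.70 CPM (log2 fold change −3.41, SE 0.54, adjusted p = 0.002238). Among crosslinking and proteolytic enzymes 4 of 34 tested members rose and 8 fell (5, 7, 5, 5), or 13 with no filter. *Adamts15*, a proteoglycan-cleaving protease, fell from 737 and 286 to 14.8 and 19.2 CPM (log2 fold change −4.91 (−4.07, −5.43, −4.74, −5.14), SE 0.75, adjusted p = 0.001812). *Timp2*, an inhibitor of metalloproteinases, was at 2895 and 2272 against 1504 and 1116 CPM (log2 fold change −0.98, SE 0.23, adjusted p = 0.01493 (0.09596, 0.0259, 0.02989, 0.08347), or 0.05185 with the 4-week libraries alone).

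Of 22 contractile and myofibroblast genes 9 rose (5, 9, 6, 9) and 2 fell (1, 0, 0, 1). *Myh11*, smooth muscle myosin, rose from 55.9 and 35.3 to 278 and 223 CPM (log2 fold change 2.46, SE 0.29, adjusted p = 0.000462). *Cnn1*, calponin, went from 0.175 and 0.773 to 12.2 and 11.2 CPM (log2 fold change 4.72 (3.91, 6.03, 4.65, 4.76), SE 0.96, adjusted p = 0.007529 (0.061, 0.01922, 0.03412, 0.02427)). *Acta2*, smooth muscle actin, was at 548 and 1435 CPM in control and 2607 and 2239 CPM in Sox17-Erg, where the control replicates lay far apart (adjusted p = 0.1003, or 0.001136 with no filter and 0.01957 with DESeq2). On the pericyte and smooth muscle list, which shares *Myh11*, *Cnn1* and *Acta2*, 6 of 12 tested members rose and 2 fell (1, 2, 1, 1), or 1 with most other settings. *Cspg4*, the pericyte proteoglycan NG2, rose from 8.04 and 9.52 to 97.02 and 122 CPM (log2 fold change 3.65, SE 0.40, adjusted p = 0.0003001), and *Abcc9*, a subunit of pericyte potassium channels, fell from 21.9 and 10.3 to 2.58 and 3.82 CPM (log2 fold change −2.33 (−1.68, −2.77, −2.08, −2.67), SE 0.36, adjusted p = 0.001847).

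Mitosis genes were low in both groups and their median was higher in Sox17-Erg, whereas the number called depended on the fit. Of 24 mitosis genes 8 rose (0, 0, 6, 0) and none fell, and 16 rose with DESeq2 and 21 with no filter on low counts. Their median log2 fold change was 1.78 (2.03, 1.56, 2.27, 0.96), and both Sox17-Erg libraries lay above both controls in 20 of the 24, against 30.3% of all tested genes. The summed CPM of the list was 95.3 and 79.4 in control and 160 and 414 in Sox17-Erg, so the second Sox17-Erg replicate stood above all others. *Cenpf*, a kinetochore protein, was at 4.34 and 1.55 CPM in control and 9.77 and 24.5 CPM in Sox17-Erg (log2 fold change 2.49 (3.46, 1.99, 3.01, 1.66), SE 0.75, adjusted p = 0.04128 (0.06979, 0.1777, 0.05166, 0.2179)). *Cdk1* was at 11.5 and 11.4 against 8.32 and 16.96 CPM, overlapping between groups (adjusted p = 0.8695). Of 24 DNA replication genes none fell and 1 rose (0, 0, 0, 0), or 5 with no filter, 0 with the 4-week libraries alone and 2 with DESeq2. The member that rose was *Cdc45* (adjusted p = 0.03797 (0.2066, 0.06761, 0.07719, 0.1709), or 0.05956 with the 4-week libraries alone). Of 22 CDK inhibitors and p53 targets 3 rose, or 5 with the replicate block, a GC offset or DESeq2 and 6 with a GC offset and the block, and 2 fell (1, 2, 1, 1). *Pmaip1*, which encodes the apoptosis protein NOXA, rose from 5.64 and 3.17 to 32.1 and 20.04 CPM (log2 fold change 2.55, SE 0.38, adjusted p = 0.001572), and *Cdkn1a*, the p21 gene, was at 301 and 241 against 342 and 272 CPM (adjusted p = 0.5975).

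Complement genes that were called all fell. None of the 14 tested members rose and 8 fell, with a median log2 fold change of −2.30. *C3*, the central complement component, fell from 2683 and 2988 to 129 and 205 CPM (log2 fold change −4.09, SE 0.49, adjusted p = 0.0005202). *C7*, of the membrane attack complex, went from 37.01 and 7.85 to 0.0354 and 0.111 CPM (log2 fold change −8.19 (−6.66, −8.90, −7.60, −9.16), SE 1.21, adjusted p = 0.001562). *Cfd*, the protease adipsin, which is also an adipocyte product, was at 45.5 and 29.1 CPM in control and 0 and 0.0370 CPM in Sox17-Erg, lower by a ratio of 2168 with a 95% exact counting interval of 389 to 85670 (adjusted p = 0.003811). *Serping1*, the C1 inhibitor, was at 2873 and 1799 against 813 and 609 CPM (adjusted p = 0.0806, or 0.0001112 with no filter and 0.01664 with the 4-week libraries alone).

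The interferon-stimulated and MHC class I genes that were called all fell, whereas chemokines and cytokines moved in both directions. Of 25 interferon-stimulated genes none rose and 9 fell (6, 1, 0, 2), or 18 with no filter. Of 15 genes of MHC class I presentation none rose and 5 fell (1, 1, 0, 4), or 9 with no filter, the replicate block or a GC offset and the block and 3 with the 4-week libraries alone or a GC offset. *Bst2*, a membrane protein that tethers viruses, was at 131 and 117 CPM in control and 61.98 and 78.1 CPM in Sox17-Erg (log2 fold change −0.82, SE 0.18, adjusted p = 0.01057 (0.0684, 0.03022, 0.09079, 0.01859)). *B2m*, the light chain of MHC class I, was at 964 and 1055 against 701 and 619.9 CPM (log2 fold change −0.61, SE 0.19, adjusted p = 0.04427 (0.1029, 0.1709, 0.1099, 0.1576), or 0.05079 with the replicate block and 0.07351 with the 4-week libraries alone). Among chemokines and cytokines 5 of 17 tested members rose and 3 fell. *Il33*, a nuclear alarmin of stromal cells, fell from 56.6 and 50.1 to 0.885 and 1 CPM (log2 fold change −5.82, SE 0.36, adjusted p = 1.83e-05). *Csf1*, the macrophage growth factor, went from 1197 and 1289 to 366 and 374 CPM (log2 fold change −1.75, SE 0.17, adjusted p = 0.0001497). None of 14 macrophage genes was called, or 1 with no filter. Their median log2 fold change was 0.27 (−0.64, 2.35, 1.01, −1.53), so its sign depended on the library left out. *Lyz2* was at 36.1 and 303 CPM in control and 44.2 and 199 CPM in Sox17-Erg (adjusted p = 0.7481).

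Glycolysis and hypoxia genes moved in small numbers in each direction. Of 25 glycolysis and hypoxia genes 4 rose (2, 3, 3, 1) and 5 fell (1, 5, 1, 1), or 3 with the 4-week libraries alone. *Gapdh* was at 539 and 639.8 against 749 and 627 CPM (adjusted p = 0.5309).

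Markers of other cell types that heart cultures can hold also differed. Of 11 mesothelial and epicardial genes 8 fell (5, 7, 6, 3) and none rose, with *Msln*, mesothelin, at 995 and 649 against 189 and 123 CPM (log2 fold change −2.40, SE 0.53, adjusted p = 0.01087 (0.0599, 0.0216, 0.04997, 0.07823)) and *Lrrn4* at 84.9 and 49.7 against 12.3 and 6.11 CPM (log2 fold change −2.87 (−2.43, −3.20, −3.47, −2.49), SE 0.55, adjusted p = 0.005601). Of 17 cardiomyocyte genes 10 fell (11, 9, 5, 10) and none rose, with *Actc1*, cardiac actin, at 9.07 and 26.1 against 0.743 and 2.85 CPM (log2 fold change −3.29 (−3.86, −2.33, −2.63, −4.57), SE 0.65, adjusted p = 0.006559) and *Tnnt2* at 929.9 and 1097 against 665 and 642 CPM (adjusted p = 0.1392, or 0.03855 with no filter). Of 11 adipocyte genes 7 fell (5, 7, 2, 4) and none rose. *Plin1*, the lipid droplet coat protein, was at 15.3 and 11.6 CPM in control and 0.142 and 0.333 CPM in Sox17-Erg (log2 fold change −5.80 (−5.59, −5.98, −5.32, −6.55), SE 1.15, adjusted p = 0.006762 (0.02605, 0.01752, 0.07063, 0.04112)). *Cidec*, of the same droplets, was at 12.1 and 5.61 CPM in control with no count in Sox17-Erg, at least 81.4-fold lower (51.7, 111, 79.6, 83.3) (adjusted p = 0.0147 (0.04929, 0.03076, 0.07422, 0.05885)). The summed CPM of these lists ranged from 1015 to 1609 in control and 226 to 329 in Sox17-Erg for mesothelial genes, from 1638 to 1911 and 1112 to 1180 for cardiomyocyte genes, and from 454 to 664 and 277 to 384 for adipocyte genes. They moved in the same direction as the fibroblast and complement genes, and their part in those results was not tested.

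Genes known from cartilage, nerve and other lineages also moved. *Col10a1*, the collagen of hypertrophic cartilage, was at 0.100 and 0.0407 CPM in control and 46.1 and 28.1 CPM in Sox17-Erg (log2 fold change 8.83 (9.67, 8.48, 8.44, 9.12), SE 0.59, adjusted p = 2.526e-05). *Acan*, the cartilage proteoglycan aggrecan, was at 0 and 0.0407 against 5.06 and 3.67 CPM, a ratio of 283 with a 95% exact counting interval of 50.2 to 11200 (adjusted p = 0.0005956). On the chondrocyte and osteoblast list 4 of 7 tested members rose and 2 fell (1, 0, 0, 0), or 1 with the 4-week libraries alone, a GC offset or a GC offset and the block. The cartilage regulator *Sox9* was among those that fell. *Foxd3*, a neural crest factor, rose from 0.0251 and 0.163 to 2.87 and 5.70 CPM (log2 fold change 5.62 (4.68, 7.18, 6.03, 5.01), SE 0.96, adjusted p = 0.003255), and on the Schwann and neural list 3 of 9 tested members rose (2, 1, 1, 1) and 1 fell (1, 1, 1, 0). *Prdm1*, a transcriptional repressor of immune and endoderm lineages, had no count in control and 47.3 and 46.7 CPM in Sox17-Erg, at least 477-fold higher (adjusted p = 1.505e-05). It was placed on a list of definitive endoderm, a fate in which SOX17 also acts. The 14 endoderm genes of the list besides *Gata6* and *Prdm1* had too few counts to test, and *Foxa1* had no count in any of the 4 libraries. *Alas2*, the erythroid enzyme of heme synthesis, fell from 53.9 and 37.5 to 9.17 and 3.59 CPM (log2 fold change −2.84 (−2.55, −3.07, −3.68, −2.35), SE 0.41, adjusted p = 0.001408), in cultures with hemoglobin transcripts at 0.0346 to 0.097 CPM.

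Large gains outside the lists included those of *Npffr1*, *Sox21*, *Pmch* and *Crym*. *Npffr1*, a neuropeptide receptor, had no count in control and 33.9 and 56.3 CPM in Sox17-Erg, at least 458-fold higher (adjusted p = 2.893e-05). *Sox21*, a SOX B group factor of neural progenitors, had no count in control and 29.4 and 23.2 CPM in Sox17-Erg, at least 267-fold higher (adjusted p = 0.0006222). *Pmch*, the precursor of melanin-concentrating hormone, had no count in control and 15.3 and 14.8 CPM in Sox17-Erg, at least 152-fold higher (adjusted p = 0.004208). *Crym*, a thyroid hormone-binding protein, was at 0.301 and 0.0407 against 109.8 and 118 CPM (log2 fold change 9.14 (11.29, 8.55, 9.19, 9.06), SE 0.52, adjusted p = 1.71e-05). These genes were at or near 0 in control and present in both Sox17-Erg replicates. The gain of *Gm28439* is uncertain: this pseudogene on chromosome 1 had no count in the 4-week controls and 707 and 469 CPM in Sox17-Erg (adjusted p = 0.01622 (0.08579, 0.06557, 0.05328, 0.0373)), all 846 of its 31-base words also occur in the mitochondrial gene *mt-Nd4*, and its mean was 461 CPM in control at Day 3.

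Genes with some of the smallest p-values are given next. *Fgd3*, an exchange factor for the GTPase CDC42, was at 4.99 and 4.76 CPM in control and 44.95 and 42.2 CPM in Sox17-Erg (log2 fold change 3.16, SE 0.12, adjusted p = 6.481e-06). *Rasgrp3*, an activator of RAS in endothelial cells, rose from 0.626 and 0.569 to 168 and 137 CPM (log2 fold change 7.97, SE 0.35, adjusted p = 7.996e-06), *Rgs16*, a brake on G protein signalling, from 3.16 and 2.36 to 199 and 139 CPM (log2 fold change 5.92, SE 0.24, adjusted p = 6.481e-06). *Myct1*, an endothelial membrane protein, went from 0.652 and 0.610 to 29.3 and 26.4 CPM (log2 fold change 5.45, SE 0.27, adjusted p = 9.346e-06). On the falling side, *Crispld2*, a secreted protein of mesenchyme, went from 386 and 412 to 20.1 and 20.5 CPM (log2 fold change −4.29, SE 0.25, adjusted p = 1.71e-05), *Ank3*, the membrane adaptor ankyrin G, from 70.5 and 77.8 to 10.6 and 8.41 CPM (log2 fold change −2.96, SE 0.16, adjusted p = 1.185e-05). *Cd38*, an enzyme that consumes NAD, went from 225 and 262 to 22.1 and 33.5 CPM (log2 fold change −3.13, SE 0.21, adjusted p = 2.526e-05).

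Among the 15 largest falls of genes at 10 CPM or more in both controls were *Lrat*, *Car3*, *Cnmd*, *Hp* and *Agt*. *Lrat*, which esterifies retinol for storage, fell from 281 and 133 to 0.460 and 0.852 CPM (log2 fold change −8.30 (−7.66, −8.73, −7.92, −8.83), SE 0.60, adjusted p = 3.67e-05). *Car3*, carbonic anhydrase 3, was at 62.3 and 33.4 CPM in control with no count in Sox17-Erg, at least 441-fold lower (adjusted p = 0.008872 (0.0303, 0.02012, 0.05631, 0.04322)). *Cnmd*, chondromodulin, was at 15.8 and 16.7 CPM in control and 0 and 0.259 CPM in Sox17-Erg (log2 fold change −6.94 (−6.98, −6.90, −5.95, −11.77), SE 0.84, adjusted p = 0.0005499). *Hp*, haptoglobin, fell from 278 and 137 to 6.09 and 7.26 CPM (log2 fold change −4.96 (−4.36, −5.37, −4.84, −5.12), SE 0.71, adjusted p = 0.001331). *Agt*, angiotensinogen, went from 20.95 and 10.6 to 0.991 and 0.630 CPM (log2 fold change −4.28, SE 0.74, adjusted p = 0.003609).

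**Figure D4:**
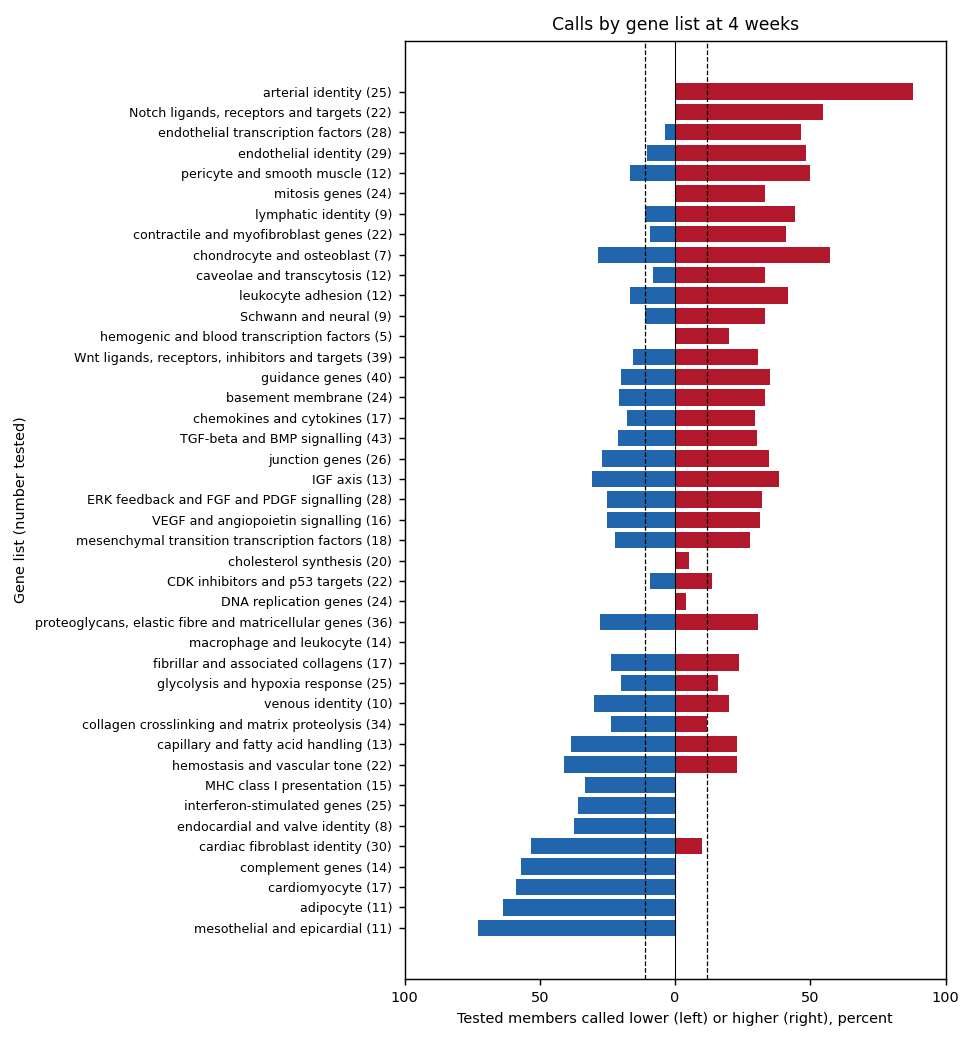
Share of tested members (percent) of each gene list that were called higher (to the right) or lower (to the left) in Sox17-Erg at 4 weeks, with the number tested beside each name. Dashed lines mark the shares over all 15506 genes tested, 11.9% higher and 11% lower. The arterial list reaches furthest to the right, and the mesothelial, adipocyte, cardiomyocyte and complement lists reach furthest to the left. Lists with fewer than 5 tested members are left out. All lists were written with earlier results of these data known.

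The state at 4 weeks was then set against the earlier time points, which are other libraries of the same fit. Of the 1845 genes that rose at 4 weeks, 1105 were called higher at Day 7 and 596 at Day 3, and 1791 and 1574 had a positive effect. Of the 1703 that fell, the Day 7 test also called 953 lower and the Day 3 test 435, with a negative effect in 1661 and 1474. Only 2 genes were called in opposite directions at Day 7 and 4 weeks, and 29 at Day 3 and 4 weeks. In time order, the median effect on the log2 scale was 0.50, 0.87 and 1.34 for risen genes and −0.57, −0.93 and −1.23 for fallen genes. Because the genes were chosen at 4 weeks, a smaller effect at other times is built into this comparison.

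**Figure D5:**
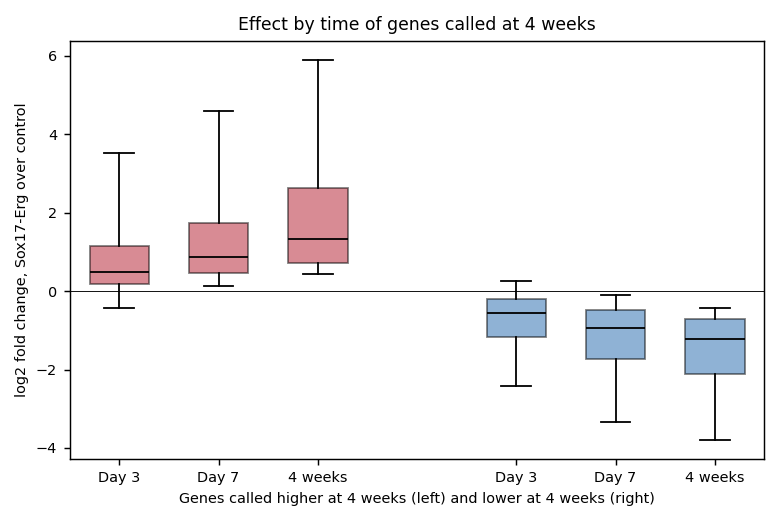
Log2 fold change, Sox17-Erg over control, at Day 3, Day 7 and 4 weeks for the 1845 genes called higher and the 1703 called lower at 4 weeks. Boxes span the quartiles with the median as a line, and whiskers reach from the 5th to the 95th percentile of genes. The medians lie at 0.50, 0.87 and 1.34 for risen genes and at −0.57, −0.93 and −1.23 for fallen genes.

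A test of the difference between effects showed where 4 weeks departed from Day 3. The effect was more positive at 4 weeks for 345 genes (2.22% of those tested) and more negative for 153 (0.987%), among them 312 of the risen and 116 of the fallen genes. In all 498 genes were called in either direction, and 211, 291, 181 and 282 with each library left out. *Pecam1* was one: the log2 fold change grew from 0.67 (Day 3) through 2.10 (Day 7) to 4.21 (4 weeks minus Day 3, adjusted p = 0.01087). *Postn* went from 0.35 through 2.69 to 4.74 (adjusted p = 0.001265). *Runx1* went from 0.68 through 2.65 to 4.01 (adjusted p = 0.00409). These late risers contrasted with *Igfbp3*, which started at 4.83 on Day 3, stood at 0.73 on Day 7 and ended at −0.84 (adjusted p = 0.00216). *Edn1* and *Slit2* had nearly the same effect throughout, with log2 fold changes of 3.37, 3.60 and 3.59 for *Edn1* and 2.90, 3.04 and 2.65 for *Slit2* (adjusted p = 0.8639 and 0.8207). *Vwf* was at 0.04 and −0.11 before it reached 4.53, a difference that missed the threshold against both Day 3 (adjusted p = 0.1256) and Day 7 (adjusted p = 0.4086).

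From Day 7 to 4 weeks the number of effects called different depended on the fit. The test called 4 genes more positive (0.0258%) and 2 more negative (0.0129%) at 4 weeks, with 1004 genes at an unadjusted p under 0.05. The 4 were *Stk38l*, *Gpc1*, *Cd9* and *Pde1b*, and the 2 were *Slc1a3* and *Rab3c*. *Stk38l*, a kinase of the NDR family, changed its effect from 1.45 on Day 7 to 3.30 on the log2 scale (adjusted p = 0.02023), although 18.2% of its transcript words are shared with *Gm3555*. *Cd9*, a tetraspanin, went from 1.22 to 3.34 (adjusted p = 0.02023). *Slc1a3*, a glutamate transporter, went from −0.05 to −2.10 (adjusted p = 0.02023). The number of such genes, 6 in all, was 0, 5, 0 and 7 with each library left out, 14 with the replicate block and 245 with no filter on low counts, so a difference that was not called is not shown to be absent. Within the Sox17-Erg cultures themselves, 178 genes rose (1.15%) and 104 fell (0.671%) from Day 7 to 4 weeks, and 112 of the risen and 31 of the fallen genes at 4 weeks were among them. Both directions together made 282 genes, and 194, 213, 20 and 75 with each library left out.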

How the data were processed

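RNA was measured in 12 libraries, 2 per group, by stranded poly(A) RNA-seq, and the 4 libraries at 4 weeks were compared. The authors deposited expected counts, estimated per gene with Salmon and rounded to whole numbers, in 1 table; the submitters' processing notes also name bcl2fastq 2.20.0, DESeq2 and mm10. Estimates can split reads between genes with shared sequence, so the share of 31-base words that each named transcript shares with other genes was computed.

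The counts were filtered (minimum count 10 and total 15 in edgeR's filterByExpr), scaled by TMM and fitted with edgeR 4.0.16 in R 4.3.3, with 1 mean for each of 6 groups over all 12 libraries (6 residual degrees of freedom). Genes were called by the quasi-likelihood test where p, after Benjamini–Hochberg adjustment, was under 0.05. Standard errors were derived from the fold change and the F statistic. A gene at 0 in a group was given a bound from a floor of 3 counts per library, and a gene with 1 to 3 counts in a group a ratio with a 95% exact interval. Intervals and floors cover counting error only. Library totals at 4 weeks were 24120758 to 41240449.

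Alternatives were DESeq2 1.42.0, its size factors, other filters, a replicate block, a GC offset, the 4-week libraries alone and leaving out each library. Samples with the same replicate number deviated together: the correlation was 0.1714 for the 4-week libraries, 0.3013 for those of Day 7 and 0.1865 for those of Day 3. The labels do not say what the number marks. The fit above has no block, and blocked values are given where they change a named gene's call or move a list's count by over 1.5 times, so a count without one can still differ by less.

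The lists and the genes named were chosen with earlier results of these data known. The rule named the 15 largest changes in each direction with at least 10 CPM in both libraries of the higher group, the 10 smallest p-values in each direction, the delivered genes, genes that the study names, and for each list the 2 largest changes in each direction and the most expressed member. The text describes part of them. Genes outside the rule, such as *C3*, *Dcn*, *Fn1*, *Gata4* and *Nos3*, were chosen after their values were seen. A withheld item is not reported here.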

Additional observations from a re-analysis of the deposited data

Results flagged for a closer look

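For the genes described above, the effect at 4 weeks was set against the effects at Day 3 and Day 7 with edgeR's quasi-likelihood test of the difference between effects. The values here are log2 differences, the 4-week effect minus the earlier one, each with an adjusted p under 0.05. No cause was tested for any of them.

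Against Day 3, the effect was more positive at 4 weeks by the following amounts: *Npffr1* 10.83, *Col10a1* 9.34, *Prdm1* 7.16, *Sema3g* 6.70, *Nrarp* 6.63, *Acan* 6.38 and *Tbx15* 5.12. Further positive differences from Day 3 were *Prrx2* 4.67, *Postn* 4.40, *Mfsd2a* 4.39, *Pde1b* 4.37, *Rasgrp3* 4.35, *Jag2* 4.20 and *Pdgfb* 4.04. Next in size among the gains on Day 3 came *Pi16* 4.03, *Ccn3* 3.88, *Cd9* 3.87, *Entpd1* 3.83, *Gpc1* 3.80, *Pgf* 3.78 and *Pecam1* 3.54. Lower positive differences from Day 3 were those of *Sema6a* 3.45, *Crym* 3.45, *Cspg4* 3.36, *Runx1* 3.33, *Fgfr3* 3.25, *Icam2* 3.20 and *Myh11* 3.12. Gains of smaller size over Day 3 were *Prox1* 2.85, *Stk38l* 2.70, *Ltbp1* 2.58, *S1pr1* 2.56, *Myct1* 2.54, *Col14a1* 2.47 and *Col4a4* 2.1999. The smallest of these gains were *Id4* 2.1965, *Fgd3* 2.15, *Notch3* 1.98, *Notch1* 1.44 and *Vegfa* 1.34. The values of *Npffr1* and *Prdm1* depend on the prior count added in the fit, because neither gene had a count in the 4-week controls.

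More negative at 4 weeks than at Day 3 were *Igfbp3* −5.67, *Meox2* −3.94, *Cd38* −3.26, *Rab3c* −3.07, *Sfrp1* −2.87, *Abcc9* −2.84 and *Sema3c* −2.64. The remaining negative differences were *Slc1a3* −2.32, *Crispld2* −2.20, *Nrp1* −1.85, *Ank3* −1.65, *Cdh11* −1.57 and *Cavin2* −1.13. Of these genes, the log2 fold change at Day 3 ran from 2.11 to 4.83 for *Igfbp3*, *Rab3c*, *Meox2* and *Nrp1* and from 0.12 to 0.51 for *Abcc9*, *Slc1a3* and *Cd38*, and was negative for the others. The positive difference of *Col4a4* marks a smaller fall at 4 weeks, from a log2 fold change of −4.03 at Day 3 to −1.83.

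Against Day 7, the differences were *Gpc1* 3.07, *Pde1b* 3.04, *Cd9* 2.12 and *Stk38l* 1.85 on the positive side and *Rab3c* −4.43 and *Slc1a3* −2.04 on the negative side.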

How the results depend on the processing

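The counts of genes higher in Sox17-Erg at 4 weeks (1845) and of genes lower in Sox17-Erg at 4 weeks (1703) moved by over 1.5 times only where a stricter threshold or 1 fewer library was used, among the alternatives run. An adjusted p under 0.01 left 1080 higher and 742 lower, and a log2 fold change of at least 1 left 1113 and 1003. With 1 library left out the counts ran from 1049 to 1397 higher and from 648 to 1198 lower, and the group with a lone library was assumed to vary like the others. DESeq2 called 2035 and 1893, and DESeq2 size factors in edgeR 1879 and 1658. With the replicate number as a block 1923 and 1895 genes were called. Among the genes named, the block changed no call but those of *B2m* and *Snai1*, and the 4-week libraries alone lost 6 calls and gained 3 of 172. Of 173 genes, no filter lost 1 and gained 5, DESeq2 gained 3, its size factors lost 1, the GC offset lost 2 and the GC offset with the replicate block gained 1. Each such change stands beside its gene above, except that *Vps25* lost its call with the 4-week libraries alone and with no filter.

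The difference in effect, 4 weeks minus Day 3, called in 498 genes, became 1179 with no filter on low counts and ran from 181 to 291 with 1 library left out. The difference in effect, 4 weeks minus Day 7, called in 6 genes, became 245 with no filter, 14 with the replicate block, 15 with the block and a GC offset together, and 0 to 7 with 1 library left out. The change from Day 7 to 4 weeks within Sox17-Erg, called in 282 genes, became 1419 with no filter, 486 with the GC offset and the replicate block, and 20 to 213 with 1 library left out. The cause was not tested.

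Of 173 genes named, 142, 154, 141 and 147 stayed on their side of the threshold with the same sign without control replicate 1, control replicate 2, Sox17-Erg replicate 1 and Sox17-Erg replicate 2. Signs turned among genes not called. With 1 library left out the log2 fold change ran from −1.39 to 1.98 for *Alox5*, from −0.49 to 0.56 for *Cdk1*, from −0.11 to 0.0547 for *Ets1*, from −0.12 to 0.20 for *Gata4*, from −0.35 to 1.67 for *Lyve1*. It ran from −1.96 to 1.75 for *Lyz2*, from −0.20 to 0.0437 for *Mgp*, from −1.39 to 3.60 for *Nos3*, from −0.30 to 0.0798 for *Nr2f2*. It also ran from −0.42 to 0.0895 for *Pdpn*, from −0.64 to 0.37 for *Rab3c* and from −0.48 to 0.79 for *Sele*. Depth limits genes near 3 counts, and 2 libraries a group limit all tests.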
